A study of Mus musculus with 7 samples.

Results

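Among the read pairs listed for the mouse mitochondrial genome, 257 of 2014 unique pairs had their reads on opposite strands within an insert of at most 20 bp, and in 255 of them the reads shared at least 1 base. They were chosen by the strands in the alignment flags, which had to differ, and by an insert size of at most 20 bp, after pairs with identical positions and strands had been counted once. Of the 257 pairs, 247 came from 6 heart libraries and 10 from 1 muscle library. They are called overlapping pairs here. The choice rests on measured values, so insert size, strand and the shift between the reads are given as a description.

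The lists came from a study of mice whose heart mitochondria cannot fuse their outer membranes, which asked whether mtDNA becomes rearranged. The 3 control hearts were from littermates with the genotype Mfn1 loxP/ loxP, Mfn2 loxP/ loxP and no Cre, and the 3 *dMfn* KO hearts had the genotype Mfn1 -/ -, Mfn2 -/- with Cre. Both groups were C57BL/6N mice of 5 weeks. Cre was driven by the *Ckmm* promoter, which is active in heart and skeletal muscle, so other cells of the heart keep both genes. The hearts gave DNA of isolated mitochondria. The Deletor library was total DNA of 1 mouse, labelled as C57BL/6J, skeletal muscle, 20 weeks of age and carrying an in-frame duplication of Twinkle residues 353 to 365 (dup353-365). The study's own text gives this mouse another Twinkle change and the age of the hearts, and the labels were followed here. The lists hold positions and no expression, so the tissue could not be checked against markers.

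Mouse mtDNA is a closed circle that encodes subunits of the respiratory chain, the rRNAs of the mitochondrial ribosome and a set of tRNAs. The control region carries the promoters and the heavy-strand origin, and the light-strand origin is a short hairpin inside a cluster of tRNA genes. The tRNA genes punctuate the circle and mark where the long transcripts are cut. Replication from both origins leaves one strand single for part of the cycle, and single-stranded DNA can fold back on itself. A read pair of an ordinary fragment has one read at each end, facing inward and separated by the fragment.

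The overlapping pairs had no such separation. By their insert sizes and positions, 256 of the 257 pairs had reads aligned over 20 bases. The study sequenced 100 bases from each end of fragments of about 500 bp, and remapped reads that had failed after trimming them. Insert sizes and shared bases therefore describe the aligned stretches, not whole reads or fragments. In 255 pairs the reads shared at least 1 base. In the remaining 2 pairs, 1 of control replicate 3 at positions 11076 and 11039 and 1 of *dMfn* KO replicate 3 at 13840 and 13814, the forward read lay 37 and 26 bases after the reverse read, and the reads shared no base. The reverse read lay after the forward read in 0 of the 257 pairs. For reads aligned over 20 bases the insert-size limit fixes this, since such a pair would exceed 20 bp. Pairs that mapped with the usual orientation and spacing had been left out of the deposited lists, and 0 inward pairs over 20 and up to 500 bp were listed.

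The insert size was 17 bp in 49 pairs, 18 bp in 55, 19 bp in 71 and 20 bp in 49. The shortest insert was 6 bp. At the limit itself stood the 49 pairs of 20 bp, whose reads began at the same position. Just outside it, 5 opposite-strand pairs had sizes over 20 and up to 100 bp: 1 pair of 21 bp and 1 of 40 bp in the Deletor library, and pairs of 27, 29 and 29 bp in control replicate 3. In all 5 the forward read started 41 to 60 bases after the reverse read, so their reads did not overlap.

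The forward read was read 1 in 120 pairs and read 2 in 137 (46.7% read 1). No overlapping pair was listed more than once: the 257 pairs were 257 listed pairs. The same-strand pairs 60 bp apart, which are another common class of the same lists, had 9 additional copies among 320 unique heart pairs and 111 among 928 unique Deletor pairs.

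The number of overlapping pairs differed most between the groups of hearts. The 3 controls held 44, 62 and 71 pairs and the 3 *dMfn* KO hearts 34, 20 and 16. Each control held more than each *dMfn* KO heart. The means were 59.0 ± 13.7 and 23.3 ± 9.45 pairs (SD, n = 3 each), so the control mean was 2.53 times the *dMfn* KO mean. A two-sided exact permutation test gave p = 0.1, which is the lowest value possible with 3 against 3, and a Benjamini-Hochberg adjusted p of 0.4 over 12 comparisons. The difference did not pass the test.

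Other listed pairs moved in the same direction. Unique pairs outside the class numbered 100, 153 and 122 in controls against 70, 83 and 68 in *dMfn* KO hearts. There too each control held more than each *dMfn* KO heart, so the separation was not particular to overlapping pairs. All mapped reads per library were not used here, so the depth of each library is unknown, and its part in the number of pairs was not tested. As a share of the unique listed pairs, overlapping pairs made up 30.6% (Wilson 95% interval 23.6 to 38.5), 28.8% (23.2 to 35.2) and 36.8% (30.3 to 43.8) in controls. In *dMfn* KO hearts they made up 32.7% (24.4 to 42.2), 19.4% (12.9 to 28.1) and 19.0% (12.1 to 28.7). *dMfn* KO replicate 1 lay inside the control range and the other two *dMfn* KO hearts below it. The intervals cover counting error only.

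The mean shares were 32.1 ± 4.18% for controls and 23.7 ± 7.77% for *dMfn* KO hearts, with SDs over 3 hearts (two-sided exact permutation test, p = 0.3, adjusted p = 0.6). The difference of -8.34 percentage points became -12.8 without *dMfn* KO replicate 1. Set against the same-strand pairs 60 bp apart in the same library, controls had 0.786, 0.697 and 1.22 overlapping pairs per 60-bp pair, and *dMfn* KO hearts 0.739, 0.408 and 0.727. The 2 groups overlapped on this scale. The log2 ratio of the means shrank from -1.34 for the number to -0.53 for this ratio (exact permutation test, two-sided, p = 0.3, adjusted p = 0.6). It was -0.25 without control replicate 3 and -0.30 without *dMfn* KO replicate 2. Against all pairs outside the class the log2 ratio was -0.57 (exact permutation test, two-sided, p = 0.3, adjusted p = 0.6), and it was -0.998 without *dMfn* KO replicate 1.

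**Figure D1:**
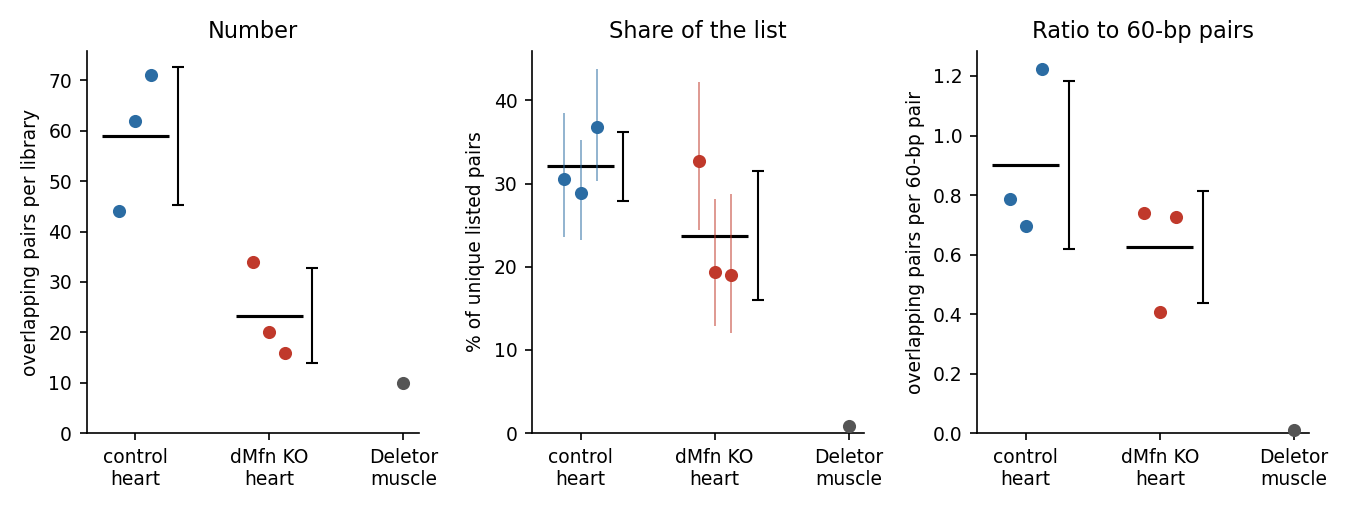
Overlapping pairs in each library as a number (left), as a percentage of unique listed pairs with Wilson 95% intervals as thin lines (middle) and per same-strand pair 60 bp apart (right). Points are libraries, horizontal lines are group means and the bars beside them are 1 SD (n = 3); the numbers of the 2 heart groups do not overlap, while the shares and ratios do.

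The Deletor library held 10 overlapping pairs among 1171 unique pairs, 0.854% (Wilson 95% interval 0.465 to 1.56), against 19.0% to 36.8% in the hearts. It held 0.0108 overlapping pairs per 60-bp pair, since 928 of its pairs belonged to that class. Tissue, DNA preparation, strain, age and genotype all differed from the hearts, and with 1 animal their parts cannot be told apart.

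Along the circle, overlapping pairs lay in all the large genes. Genes were taken from RefSeq's annotation of the mitochondrial sequence in GRCm38.p6, which holds 37 mitochondrial genes. The study mapped to another GenBank record of mouse mtDNA, and both were assumed to share their numbering. A pair was placed by its midpoint, and 18 of the 257 midpoints lay within 20 bp of the edge of a gene, the control region or the light-strand origin, where a small difference between the records could move them. Positions are those of the deposited lists, given as forward read start and reverse read start, and no sequence of that record was read.

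All 13 protein genes and both rRNA genes held at least 1 pair. In the hearts, 247 pairs over the circle gave 15.2 pairs per kb. Among protein and rRNA genes the density ran from 11.5 pairs per kb in *mt-Co3* and *mt-Nd3* to 27.2 in *mt-Nd1* (exact Poisson 95% interval 17.7 to 39.8), which encodes a membrane subunit of complex I. The intervals of the other genes included 15.2 pairs per kb. *mt-Nd1* was one of 15 protein and rRNA genes looked at, its density was not tested, and depth along the circle is unknown.

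The rRNA genes follow the control region, with *mt-Tf* between them. *mt-Rnr2*, the large ribosomal RNA, held 6, 9 and 9 pairs in the controls, 4, 0 and 1 in *dMfn* KO hearts and 3 in the Deletor library. *mt-Rnr1*, the small ribosomal RNA, held 2, 3 and 5 pairs in controls against 4, 2 and 0 in *dMfn* KO hearts. In *mt-Rnr2* each control held more pairs than each *dMfn* KO heart, as for all overlapping pairs together, and in *mt-Rnr1* the groups overlapped.

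Complex I is the first enzyme of the respiratory chain, and its 7 mitochondrial genes held 107 of the 247 heart pairs (43.3%) on 38.9% of the circle. *mt-Nd1* held 3, 7 and 7 pairs in the controls, 4, 3 and 2 in *dMfn* KO hearts and 1 in the Deletor library. *mt-Nd5*, a proton-pumping subunit and the longest of these genes, held 5, 6 and 4 pairs in the controls, 7, 2 and 2 in *dMfn* KO hearts and 2 in the Deletor library. The heart with the most pairs in *mt-Nd5* was therefore a *dMfn* KO heart.

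The other complex I genes held fewer pairs. *mt-Nd2* held 4, 3 and 8 pairs in controls against 4, 1 and 0 in *dMfn* KO hearts. *mt-Nd4* held 6, 1 and 8 in controls and 1, 1 and 1 in *dMfn* KO hearts. *mt-Nd6*, which is encoded on the opposite strand to the other protein genes, held 2, 3 and 1 in controls and 0, 2 and 1 in *dMfn* KO hearts, and *mt-Nd4l* held 4 pairs in 4 hearts. In these 4 genes the lowest control was at or below the highest *dMfn* KO heart. *mt-Nd3* held 1, 1 and 2 pairs in the controls and none in the *dMfn* KO hearts or the Deletor library.

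*mt-Cytb*, the mitochondrial subunit of complex III, held 21 pairs, all in hearts, and the controls ranged there from 0 to 10, with 0, 10 and 5 pairs. The *dMfn* KO hearts held 1, 2 and 3 there. The complex IV genes *mt-Co1*, *mt-Co2* and *mt-Co3*, subunits of cytochrome c oxidase, held 39 heart pairs (12.9 per kb), of which 9, 10 and 12 were in controls and 1, 2 and 5 in *dMfn* KO hearts. Each control held more of them than each *dMfn* KO heart, as it did of all overlapping pairs. *mt-Co1* held 19 of these heart pairs, *mt-Co2* 11 and *mt-Co3* 9. The ATP synthase genes *mt-Atp6* and *mt-Atp8* held 12 heart pairs (14.3 per kb), 1 of them in the stretch where both genes overlap.

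**Figure D2:**
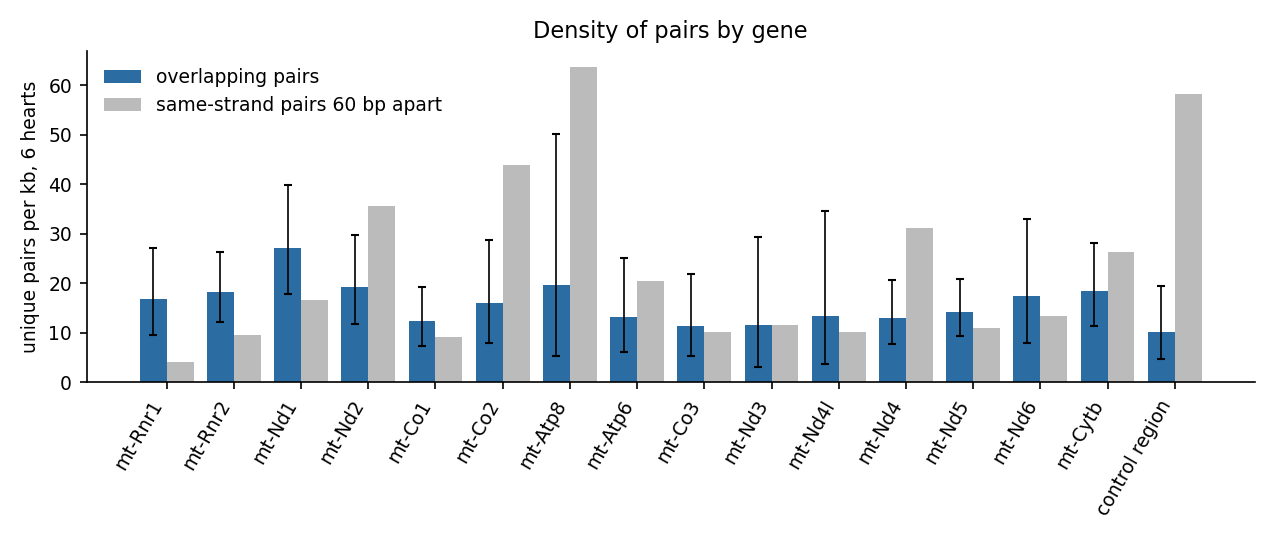
Unique pairs per kb in the 6 hearts summed, for each rRNA and protein gene and the control region, as overlapping pairs (blue, with exact Poisson 95% intervals) and same-strand pairs 60 bp apart (grey). Overlapping pairs run from 10.3 per kb in the control region to 27.2 in *mt-Nd1*, while the grey bar of the control region stands at 58.2.

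The 22 tRNA genes, which carry amino acids to the mitochondrial ribosome, held 14 overlapping pairs, 13 of them in hearts. Pairs fell in 10 of these genes and in none of the other 12, which were *mt-Tf*, *mt-Tl1*, *mt-Tq*, *mt-Tc*, *mt-Ty*, *mt-Tk*, *mt-Tr*, *mt-Th*, *mt-Ts2*, *mt-Te*, *mt-Tt* and *mt-Tp*. Each tRNA gene is short, and a gene with 0 pairs still allows 3 pairs by counting error. The cluster of *mt-Ti*, *mt-Tq* and *mt-Tm* between *mt-Nd1* and *mt-Nd2* held 4 heart pairs. Of these, 3 lay in *mt-Tm*, the tRNA for methionine, at 3865/3865 in control replicate 2, 3869/3869 in *dMfn* KO replicate 1 and 3880/3877 in control replicate 3.

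The cluster around the light-strand origin, made up of *mt-Tw*, *mt-Ta*, *mt-Tn*, *mt-Tc* and *mt-Ty*, held 3 pairs in its tRNA genes. They were at 5066/5060 in *mt-Ta* of *dMfn* KO replicate 1, at 5085/5082 in *mt-Tn* of control replicate 3 and at 4970/4968 in *mt-Tw* of the Deletor library. Between *mt-Tn* and *mt-Tc*, in the light-strand origin itself, lay 1 pair, at 5165/5160 in control replicate 2. The same-strand pairs 60 bp apart had 0 midpoints there in hearts. The origin is so short that 1 pair gave 31.2 pairs per kb, with an exact Poisson 95% interval of 0.791 to 174, and its density could not be told from that of the circle. The cluster of *mt-Th*, *mt-Ts2* and *mt-Tl2* held 2 pairs, both in *mt-Tl2* and both in controls.

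The share of overlapping pairs in tRNA genes was 4.55%, 6.45% and 5.63% in controls and 5.88%, 5.00% and 0% in *dMfn* KO hearts. The 0 of 16 pairs in *dMfn* KO replicate 3 allows a share of up to 18.8%, taking 3 pairs as the most that a count of 0 allows. The means were 5.54 ± 0.956% and 3.63 ± 3.17% (SD, n = 3 each; exact permutation test, two-sided, p = 0.5, adjusted p = 0.6).

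The control region held few overlapping pairs. There were 1, 1 and 3 in controls, 2, 2 and 0 in *dMfn* KO hearts and 0 in the Deletor library. They lay at 15433/15432, 15479/15479, 15507/15507 and 15537/15537, close to its start beside *mt-Tp*, and at 15998/15996, 16094/16094 in 2 hearts, 16119/16116 and 16282/16279 toward its end beside *mt-Tf*. Between 15537 and 15998 no heart had an overlapping pair, although 29 same-strand pairs 60 bp apart, from all 6 hearts, had their midpoints in that stretch. A longer stretch without overlapping pairs, between 10299 and 11024 inside *mt-Nd4*, held 13 such pairs from 5 hearts. Both stretches were picked because they were empty, so their length was not tested. The median spacing between neighbouring overlapping pairs of the hearts was 36 bp.

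**Figure D3:**
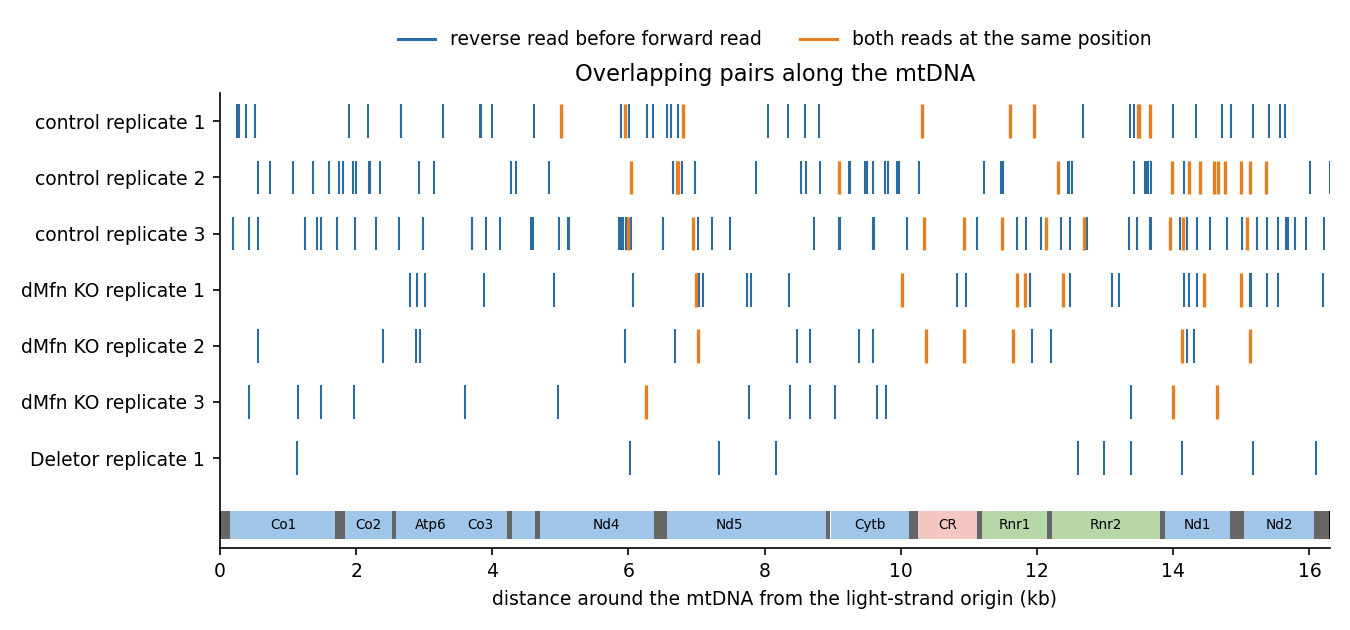
Each vertical line is an overlapping pair, in a row for its library, against its distance in kb around the mtDNA from the light-strand origin, with protein genes in light blue, rRNA genes in green, tRNA genes in grey and the control region (CR) in pink below. Orange lines are pairs with both reads at the same position; none lies between the pair at 10170 in *mt-Nd4* and, going backward through the cytochrome oxidase genes and the light-strand origin, the pair at 4223 in *mt-Nd2*.

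Position was not used to choose the pairs, so their places could be compared with those of the 60-bp same-strand pairs of the same libraries. In the control region lay 2.27%, 1.61% and 4.23% of the overlapping pairs of the controls and 5.88%, 10% and 0% of those of the *dMfn* KO hearts. Of the 60-bp pairs, 10.7%, 13.5% and 12.1% lay there in controls and 26.1%, 24.5% and 9.09% in *dMfn* KO hearts. The share was lower for overlapping pairs in 6 of 6 hearts, with a mean difference of -11.99 percentage points ± 4.73 (SD, n = 6; two-sided exact sign-flip test, p = 0.03125, the lowest value possible with 6 hearts; adjusted p = 0.0781 over 5 tests). The difference did not pass the threshold of 0.05 after adjustment. With the other tests as they were, no larger difference in 6 hearts could have passed.

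The rRNA genes showed the opposite order. Overlapping pairs lay there in 18.2%, 19.4% and 19.7% of cases in controls and 23.5%, 10% and 6.25% in *dMfn* KO hearts, against 7.14%, 5.62% and 10.3% and 4.35%, 4.08% and 0% of the 60-bp pairs. The share was higher in 6 of 6 hearts, by a mean of 10.9 percentage points ± 5.01 (SD, n = 6; exact sign-flip test, two-sided, p = 0.03125, adjusted p = 0.0781). In *dMfn* KO replicate 3 this was 1 of 16 overlapping pairs against 0 of 22 60-bp pairs. In *dMfn* KO replicate 2 it was 2 of 20 against 2 of 49. The rRNA difference also did not pass after adjustment, and its p was likewise the lowest possible. Positions ran past the mtDNA length, so the start of the circle, with part of *mt-Rnr1*, was numbered again. A same-strand pair split between both numberings was not counted as 60 bp apart. The hearts held 16 overlapping and 4 60-bp pairs in *mt-Rnr1*, against 29 and 15 in *mt-Rnr2*. How many 60-bp pairs were missed was not counted, although the lists hold such split pairs, and their part in the difference was not tested. In the Deletor library the shares were 30% of 10 overlapping pairs and 12.6% of 928 60-bp pairs for the rRNA genes, and 0% and 10.8% for the control region, where 0 of 10 pairs allows up to 30%.

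**Figure D4:**
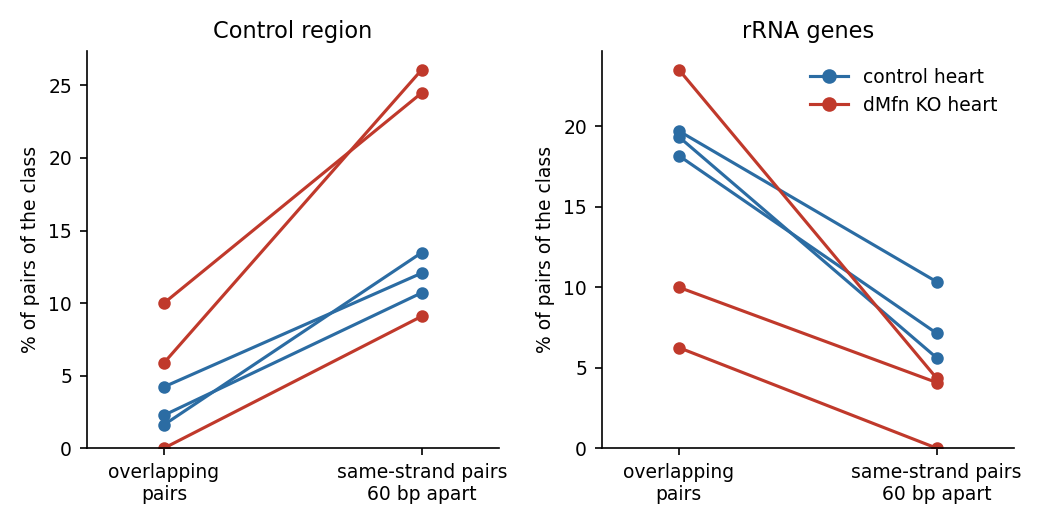
Percentage of pairs with midpoints in the control region (left) and in the rRNA genes (right) for overlapping pairs and same-strand pairs 60 bp apart, each line joining the values of 1 heart. All 6 lines rise to the right in the control region and fall in the rRNA genes.

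Shares in other places differed less between the pair classes. In protein genes the mean share was 75.0% of overlapping pairs and 71.9% of 60-bp pairs (exact sign-flip test, n = 6, p = 0.5, adjusted p = 0.664), and in tRNA genes 4.59% and 6.82% (exact sign-flip test, n = 6, p = 0.53125, adjusted p = 0.664). In the major arc, the part of the circle from the light-strand origin through *mt-Co1* and *mt-Cytb* to the control region, the means were 58.4% and 59.1% (exact sign-flip test, n = 6, p = 0.96875).

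Between control and *dMfn* KO hearts the places of the overlapping pairs overlapped in every class tested. In the control region the mean shares were 2.70 ± 1.36% and 5.29 ± 5.03% (SD, n = 3 each; exact permutation test, p = 0.5, adjusted p = 0.6). In rRNA genes they were 19.1 ± 0.803% and 13.3 ± 9.09% (exact permutation test, n = 3 each, p = 0.4, adjusted p = 0.6), and in protein genes 72.1 ± 2.50% and 77.8 ± 14.7% (exact permutation test, n = 3 each, p = 0.8, adjusted p = 0.873). The control region difference of 2.59 percentage points was 0.238 without *dMfn* KO replicate 2 and 5.24 without replicate 3, and the rRNA difference of -5.83 was -11.0 without *dMfn* KO replicate 1 and -2.32 without replicate 3. In the major arc the controls held 61.4%, 59.7% and 52.1% and the *dMfn* KO hearts 41.2%, 55.0% and 81.2% (exact permutation test, p = 0.9, adjusted p = 0.9). The *dMfn* KO hearts were the more variable group in the control region, rRNA genes, protein genes and major arc, and also had the fewer pairs, 16 to 34 a heart.

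The reads of a pair were shifted against each other by a few bases. The reverse read started at the same position as the forward read in 49 pairs (19.1%), 1 to 3 bases before it in 174 (67.7%), 4 to 8 bases before it in 32, and further before it in the 2 pairs whose reads did not overlap. The median shift was 2 bases. Pairs with both reads at the same position numbered 9, 14 and 10 in controls, 7, 6 and 3 in *dMfn* KO hearts and 0 of 10 in the Deletor library, which allows up to 30%. Their share was 20.5%, 22.6% and 14.1% in controls and 20.6%, 30% and 18.8% in *dMfn* KO hearts, and the groups overlapped. With reads aligned over 20 bases these are the pairs of 20 bp. The share thus restates the insert size that chose the pairs, and no test is given.

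**Figure D5:**
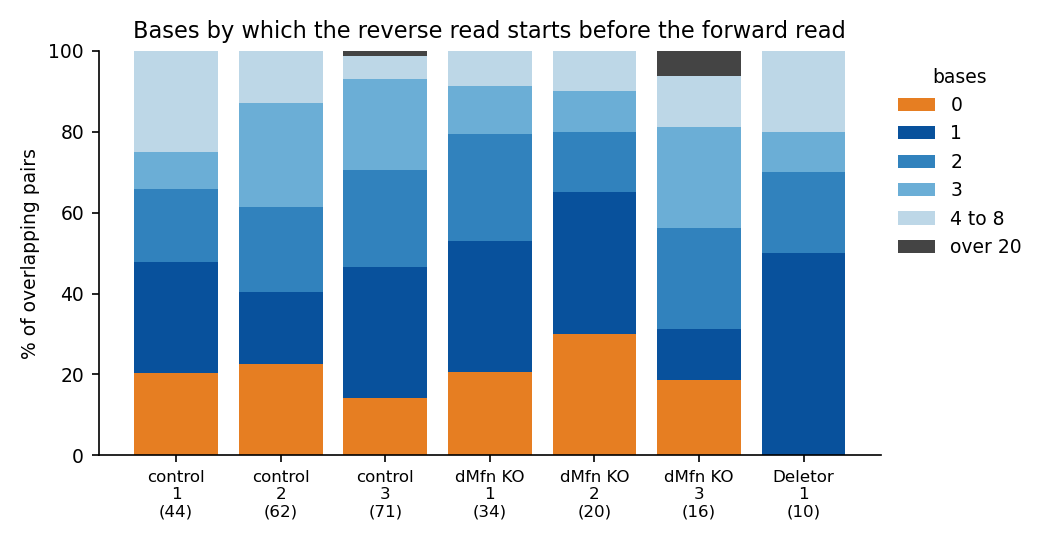
Percentage of the overlapping pairs of each library, with the number of pairs in brackets, by the number of bases from the start of the reverse read to the start of the forward read. A shift of 1 to 3 bases (dark to mid blue) is the largest part in every library, and the orange part, reads at the same position, is between 14.1% and 30% in the hearts.

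Pairs with both reads at the same position made up different shares of the pairs along the circle. Of the 76 overlapping pairs from *mt-Tf* through the rRNA genes to *mt-Nd1*, 25 had reads at the same position (32.9%), and *mt-Nd1* alone held 12 of 27 (44.4%). In the control region 5 of 9 did. From *mt-Tc* to *mt-Co3*, 0 of 55 did, and all 40 pairs in the complex IV genes and all 12 in the ATP synthase genes were shifted.

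The longest run of shifted pairs went from the same-position pair at 4223 in *mt-Nd2* to the one at 10170 in *mt-Nd4*, a distance of 5947 bp. It held 80 overlapping pairs, of which 16, 19 and 25 were in controls, 8, 4 and 6 in *dMfn* KO hearts and 2 in the Deletor library, so the run was made up of pairs from all 7 libraries. Elsewhere 32.1%, 32.6% and 21.7% of the pairs of the controls and 26.9%, 37.5% and 30% of those of the *dMfn* KO hearts had reads at the same position, as did 0 of 8 in the Deletor library, which held none in the run either. The stretch was picked for holding none, and the shift is another form of the insert size that chose the pairs, so no test was made.

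Past *mt-Nd4* such pairs were present again, in 5 of 19 pairs of *mt-Nd4* and 6 of 28 of *mt-Nd5*. *mt-Nd6* held 0 of 9 and *mt-Cytb* 2 of 21. The largest shifts between overlapping reads were 8 bases, at 5358/5350 at the start of *mt-Co1* in control replicate 3, and 6 bases, at 5066/5060 in *mt-Ta* of *dMfn* KO replicate 1 and at 9777/9771 in *mt-Nd3* of control replicate 1.

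The same place seldom recurred exactly. Of the 257 pairs, 2 combinations of positions were found in 2 libraries: 2248/2247 in *mt-Rnr2*, in *dMfn* KO replicate 3 and the Deletor library, and 16094/16094 in the control region, in control replicate 3 and *dMfn* KO replicate 2. The first joins animals of different tissue and genotype, and the second a control and a *dMfn* KO heart. When overlapping pairs with both positions within 20 bp were linked, the 257 pairs formed 171 sites. Of these, 125 were seen in 1 library, 29 in 2 libraries and 17 in at least 3, and 118 pairs stood alone. The median spacing of heart pairs was 36 bp, so pairs of different libraries can be linked without sharing a particular place. How many sites randomly placed pairs would form was not calculated.

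The site in the most libraries, 5, lay in *mt-Nd1*. It ran from position 2992 to 3032 by read starts and held 1 pair each of control replicates 2 and 3, *dMfn* KO replicates 1 and 2 and the Deletor library. A site in *mt-Nd4*, from 11157 to 11200, held 4 pairs of the 3 controls and 1 of the Deletor library, and none of *dMfn* KO hearts. Close to it, from 11092 to 11134, lay another *mt-Nd4* site with 3 control pairs and 1 of *dMfn* KO replicate 2.

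Further sites with 4 pairs in 3 libraries lay in *mt-Rnr2* from 1325 to 1359 and from 2525 to 2547, in *mt-Nd2* from 3995 to 4006, in *mt-Co2* from 7127 to 7162, in *mt-Nd5* from 11855 to 11899 and from 12182 to 12202, and in *mt-Cytb* from 14751 to 14769. The *mt-Nd2* site was the tightest of these, with 4 pairs, 3995/3995, 3999/3997, 4002/4002 and 4006/4005, of which 3 were from *dMfn* KO hearts. The *mt-Rnr2* site from 2525 to 2547 held pairs of all 3 controls and none of *dMfn* KO hearts. Of 7 sites with 3 pairs in 3 libraries, 6 lay in *mt-Rnr2* from 2235 to 2248, in *mt-Nd1* from 2848 to 2863 and from 3199 to 3213, in *mt-Nd2* from 4223 to 4244, in *mt-Co1* from 5720 to 5733 and in *mt-Tm*, where the 3 pairs given above make up the site, and the other in *mt-Nd5*. With 177 control and 70 *dMfn* KO pairs in all, no site was tested for a difference between the groups.

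Recurrence was also counted by heart. Of the pairs of the controls, 34.1%, 27.4% and 26.8% had a pair within 20 bp in another control, and of those of the *dMfn* KO hearts, 17.6%, 20.0% and 12.5% in another *dMfn* KO heart (exact permutation test, two-sided, p = 0.1, adjusted p = 0.4). In the hearts of the other group, 13.6%, 24.2% and 26.8% of control pairs and 44.1%, 55.0% and 50.0% of *dMfn* KO pairs had such a neighbour (exact permutation test, two-sided, p = 0.1, adjusted p = 0.4). The groups did not overlap in either measure. Both measures depend on how many pairs the searched hearts hold, 177 in controls and 70 in *dMfn* KO hearts, so they do not compare the places themselves.

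Counted per combination of pairs, the groups were closer. Among 1000 combinations of overlapping pairs from different hearts, 2.93 were within 20 bp for control with control, 4.53 for *dMfn* KO with *dMfn* KO and 3.63 for control with *dMfn* KO. The same number within a single heart was 2.42. The 4.53 rests on 7 combinations. Over any 2 different hearts it was 3.39 for overlapping pairs and 11.3 for the 60-bp same-strand pairs, which were therefore more gathered in common places. These are descriptions of the positions listed.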

How the data were processed

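DNA of isolated heart mitochondria and total DNA of the Deletor mouse was sequenced in pairs. The authors took out nuclear reads with Bowtie2 2.1.0 (the submitters' processing notes list NCBIM37), mapped the rest to an mtDNA record with BWA 0.6.2-r126, trimmed and remapped what failed, and kept mapped pairs outside the proper orientation and spacing. Their deposited lists give each read's flag, position, mate position and insert size, without sequence or depth.

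Reads were joined by name. The mtDNA length, 16299 bp, is the mean of the 2 commonest sizes of same-strand pairs over 16000 bp, and positions beyond it were placed from the start of the circle. Genes came from RefSeq (GRCm38.p6, 37 genes). Named were features with at least 8 pairs or pairs in at least 4 hearts, features with none, and sites in at least 3 libraries, up to 30 in all. The members and lists were chosen with earlier results of these data known.

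Groups were compared by exact permutation over 20 divisions of the hearts and pair classes by exact sign flips over 64 patterns, two-sided, with Benjamini-Hochberg adjustment. Shares have Wilson intervals and densities exact Poisson intervals. On simulated data 300 of 300 pairs were recovered. Alternatives were other size limits, leaving out each heart, the replicate block, circular distance and shifted gene bounds. The software was Python 3.11.15 with numpy 2.4.6, scipy 1.17.1, pandas 2.3.3 and, for plots, matplotlib 3.10.9.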

Additional observations from a re-analysis of the deposited data

Results flagged for a closer look

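In control replicate 3, 1 opposite-strand pair outside the class had an insert size of 16318 bp, close to the length of 1 mtDNA, with its forward read at 517 and its reverse read at 16815. Placed on a circle of 16299 bp, the reverse read lies at 516, 1 base before the forward read, in *mt-Rnr1*, with a size of 19 bp. It was noticed because the comparisons do not use it. With distances taken around the circle it joins the overlapping pairs, and the log2 ratio of their numbers is then -1.35.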

How the results depend on the processing

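Recalculated were 12 comparisons of control with *dMfn* KO hearts, of which that of same-position pairs restates the insert size, and 5 with the 60-bp pairs. Of 210 recalculations, 188 kept direction and side of an unadjusted threshold of 0.05, 10 turned direction and 12 moved above 0.05. For the 12 group comparisons no exact test could give p below 0.1, so only their direction could change. No overlapping pair had copies, so counting all listed pairs left many values the same. A limit of 10 bp left 1 pair, in *dMfn* KO replicate 3, which turned the difference in the share of listed pairs from -8.34 to 0.397 percentage points; a ratio or place share could not be calculated there. Blocked by replicate number, the log2 ratio of the number of pairs averaged -1.38 (exact sign-flip test, p = 0.25, the smallest 3 pairs allow), and no direction changed. Nothing states that same-numbered hearts share a litter or day. Their deviations over 11 gene lists had r of 0.25, 0.11 and -0.40, which cannot tell whether they share more than a number.

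Leaving out each heart in turn, the log2 ratio ran from -1.71 to -1.13 for the number of pairs, from -0.69 to -0.25 per 60-bp pair and from -0.998 to -0.39 per other pair. *dMfn* KO minus control differences ran, in percentage points, from -12.8 to -5.98 for the share of listed pairs, -3.04 to -0.102 for tRNA genes, 0.238 to 5.24 for the control region, -11.0 to -2.32 for rRNA genes and 13.0 to 39.0 for recurrence in the other group. They were -9.63 to 10.4 for the major arc, with the sign turned without control replicate 3 and without *dMfn* KO replicate 3, and -2.28 to 12.2 for protein genes, turned without *dMfn* KO replicate 3. Recurrence in the own group ran from -24.8 to 3.12 and turned without any 1 control, which leaves fewer control pairs to meet. Against the 60-bp pairs the control region ran from -12.8 to -10.3, the rRNA genes from 9.26 to 11.9, protein genes from 0.353 to 4.29, tRNA genes from -3.42 to 0.0443, turned without *dMfn* KO replicate 3, and the major arc from -3.38 to 1.87, turned without control replicate 2 and without *dMfn* KO replicate 1. With 5 hearts the smallest p is 0.0625, so no value could pass 0.05. Against all other unique pairs the control region differed by -7.00 and the rRNA genes by 9.56 percentage points (exact sign-flip test, n = 6, p = 0.03125 each, unadjusted). The other pairs were also placed by midpoint. For reads far apart the midpoint can lie where neither read mapped, so these 2 differences depend in part on the placing.

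Circular distances, only pairs sharing a base, and gene bounds moved by 20 bp, added after seeing the data, turned no direction. Circular distances were taken for opposite-strand pairs only, so split same-strand pairs stayed outside the 60-bp class. The number of listed pairs, 84 to 215 unique pairs a heart, limits every share.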
